A study of Mus musculus with 69 samples.

Results

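The comparison described here set the H3K27ac peaks of haematopoietic stem cells (HSCs) from knockout mice given 5-fluorouracil (5FU) beside those of knockout mice given the vehicle, phosphate-buffered saline (PBS). It consisted of 2 of the 18 peak lists of the series, with 117639 of its 1506511 peaks: 51112 in the PBS list and 66527 in the 5FU list. The lists were chosen by their group labels alone. The genotype of both groups was Kmt2c f/f; Vav-Cre, so both conditional Kmt2c alleles were open to deletion in cells with the Cre recombinase, in treated and untreated mice alike. The Vav promoter drives Cre in blood-forming cells from before birth, so the deletion was not timed to the treatment. All mice were 16 weeks old. The treated mice had 3 doses of 5FU, each of 150 mg/kg and 3 weeks apart, and the others had vehicle on the same schedule. The interval between the last dose and the sort was not given in the sources used here. Each list pooled 3 libraries, so it held no value for a single library, and no replicate error and no test between the treatments could be had. The wild-type HSC lists of the same age, schedule and antibody (3 libraries each) shared no library with the knockout pair and are given beside it.

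Kmt2c encodes MLL3, a histone methyltransferase that works in a large complex at enhancers, where H3K4me1 marks the site and H3K27ac marks an enhancer or promoter in an active state. HSCs are mostly quiescent cells that maintain all blood lineages. 5FU kills dividing progenitor cells, after which HSCs enter the cell cycle to rebuild the blood. Repeated 5FU therefore asks HSCs to divide and self-renew several times over, and the question of this comparison was which H3K27ac regions differed in knockout HSCs after that schedule.

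A promoter is printed below where 1 of the knockout lists had a peak over it and the other had none, for 6 genes with known roles in adhesion, the cell cycle, inflammation and the p53 response. These were chosen after their values were seen. Sequences are from RefSeq on build GRCm38.p6 and run 5′ to 3′ on the gene's strand, from 250 bases before to 50 bases after the annotated start. Capitals mark the letters of 4 motifs, searched on both strands, and a base may belong to more than 1 match. The motifs were AP-1 (TGANTCA, held by 8.12% of 17492 genes' promoters), the CCAAT box (CCAAT, 42.3%), the STAT motif (TTCNNNGAA, 8.92%) and the E-box (CACGTG, 8.91%). A match is a run of letters and no measured binding.
Selp (chr1:164115014-164115313, plus strand; AP-1 and CCAAT box in capitals): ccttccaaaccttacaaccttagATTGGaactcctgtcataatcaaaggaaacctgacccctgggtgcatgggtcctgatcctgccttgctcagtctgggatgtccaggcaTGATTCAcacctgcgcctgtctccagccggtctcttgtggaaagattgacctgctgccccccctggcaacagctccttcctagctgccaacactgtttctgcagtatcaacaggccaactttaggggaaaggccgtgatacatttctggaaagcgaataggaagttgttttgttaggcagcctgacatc
Il6 (chr5:30012864-30013163, plus strand; AP-1 and CCAAT box in capitals): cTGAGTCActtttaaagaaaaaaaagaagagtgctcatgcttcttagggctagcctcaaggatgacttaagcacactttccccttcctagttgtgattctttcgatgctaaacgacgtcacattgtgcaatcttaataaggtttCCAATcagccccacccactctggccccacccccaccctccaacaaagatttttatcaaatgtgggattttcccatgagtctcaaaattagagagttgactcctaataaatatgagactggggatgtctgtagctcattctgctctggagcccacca
Cdk1 (chr10:69352863-69353162, minus strand; CCAAT box in capitals): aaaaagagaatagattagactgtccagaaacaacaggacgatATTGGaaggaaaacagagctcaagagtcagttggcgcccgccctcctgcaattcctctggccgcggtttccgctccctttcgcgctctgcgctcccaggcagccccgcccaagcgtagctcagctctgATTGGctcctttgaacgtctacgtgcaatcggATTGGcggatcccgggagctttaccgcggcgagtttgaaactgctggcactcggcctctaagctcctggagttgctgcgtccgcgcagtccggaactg
Icam1 (chr9:21015690-21015989, plus strand; STAT motif in capitals): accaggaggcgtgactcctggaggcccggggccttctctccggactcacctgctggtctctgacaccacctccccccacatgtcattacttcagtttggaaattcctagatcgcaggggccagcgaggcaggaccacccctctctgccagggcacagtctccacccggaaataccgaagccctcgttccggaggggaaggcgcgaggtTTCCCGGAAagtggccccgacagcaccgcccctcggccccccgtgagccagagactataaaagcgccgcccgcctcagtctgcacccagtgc
Aen (chr7:78895808-78896107, plus strand; CCAAT box and E-box in capitals): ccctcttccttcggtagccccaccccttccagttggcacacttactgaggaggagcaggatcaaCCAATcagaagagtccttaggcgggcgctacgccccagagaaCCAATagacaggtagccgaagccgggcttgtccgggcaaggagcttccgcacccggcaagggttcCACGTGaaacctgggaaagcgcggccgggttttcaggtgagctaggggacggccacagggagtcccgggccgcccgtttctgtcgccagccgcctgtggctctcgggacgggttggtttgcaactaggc
Fas (chr19:34290409-34290708, plus strand; AP-1, STAT motif and E-box in capitals): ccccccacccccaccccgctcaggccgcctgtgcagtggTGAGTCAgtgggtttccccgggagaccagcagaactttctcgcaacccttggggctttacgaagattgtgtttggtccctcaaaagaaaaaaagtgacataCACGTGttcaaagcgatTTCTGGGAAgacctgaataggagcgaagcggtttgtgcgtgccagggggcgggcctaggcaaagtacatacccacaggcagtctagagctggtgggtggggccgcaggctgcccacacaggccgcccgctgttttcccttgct

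Among these promoters, Selp, which encodes the adhesion receptor P-selectin, had all 300 bases under a peak of the knockout 5FU list and none under a peak of the PBS list. That peak was 1580 bases wide with a −log10 p of 10.3, the authors' value for a single peak within its list. The nearest PBS peak began 260 bases after the start. Both wild-type lists also covered all 300 bases, so among the 4 lists only knockout PBS had no peak over the Selp promoter. Il6, the gene of the cytokine interleukin-6, had bases 1 to 123 of the printed sequence under a peak in the knockout 5FU list and 123 bases in the wild-type 5FU list, and neither PBS list had a peak there. The Il6 peaks were weak, with −log10 p of 3.47 and 3.65. Cdk1, the kinase that drives entry into mitosis, had bases 13 to 300 covered in the knockout 5FU list and none in the knockout PBS list, while the wild-type lists covered 81 bases (PBS) and 91 bases (5FU).

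In the opposite direction, Aen, a p53-induced nuclease gene, had bases 53 to 264 covered in the knockout PBS list and 160 bases in the wild-type PBS list, and no peak over its promoter in either 5FU list. Icam1, an adhesion molecule induced by NF-kB, had bases 1 to 226 covered in the knockout PBS list, none in the knockout 5FU list, and 176 and 222 bases in the wild-type PBS and 5FU lists. Fas, a death receptor of the p53 response, had bases 61 to 194 covered in knockout PBS only among the knockout lists and 122 bases in wild-type 5FU only among the wild-type lists. The wild-type lists therefore pointed the same way as the knockout lists for Il6 and Aen and the opposite way for Fas.

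The 2 knockout lists were not of the same kind, which bears on every count below. The 5FU list had more peaks than the PBS list (66527 against 51112), but they were narrower (median width 294 against 391 bases) and weaker: 15.7% of its peaks reached a −log10 q of 5 (10439 peaks) against 26.2% in the PBS list (13412 peaks), and 27.9% against 14.5% lay under a −log10 q of 1. The covered length was 36.5 Mb for 5FU and 33.4 Mb for PBS. The wild-type lists held 67143 (5FU) and 59263 (PBS) peaks over 45.4 and 42.2 Mb. No read totals were at hand, the sequencing depth is therefore unknown, and fewer cells with a peak cannot be told apart from less signal per cell.

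The knockout lists also differed at sex-linked genes. The PBS list had no peak at the Y-linked genes Uty, Ddx3y, Eif2s3y and Kdm5d and 622 covered bases in Xist, the RNA gene of the inactive X chromosome. The 5FU list had peaks at all 4 Y-linked genes (1491, 1493, 983 and 283 covered bases) and none in Xist. The wild-type PBS and 5FU lists both had peaks at Uty and Ddx3y and in Xist (472 and 135 bases). The labels give no sex, so treatment and the make-up of the pools by sex cannot be told apart in the knockout pair. Values for autosomes alone are therefore given beside the main counts.

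Cell identity was checked on marker genes through the bases covered by peaks from 50 kb below to 50 kb above each gene, which counts neighbouring regulatory regions too. All 10 HSC markers (among them Hlf, Mecom, Meis1, Tek, Mllt3, Procr, Fgd5, Kit and Gata2) had covered bases in both knockout lists, with a sum of 180563 bases in PBS and 215499 in 5FU and a median of 11580 and 11585. Among markers of other cells, Ctsg, Ly6c2, Gata1, Cd8a, Col3a1 and Lepr had none in either knockout list, but many others were covered. Medians in PBS and 5FU were 3887 and 5362.5 for granulocyte and monocyte markers (highest 15715 and 14553) and 4048 and 3843 for erythroid and megakaryocyte markers. They were 2942 and 2901 for mature T, NK and B cell, 1644 and 1652 for lymphoid and 798 and 911 for stroma and endothelium markers. The summed coverage of the 7 stroma and endothelium markers ran from 5838 (PBS) to 6177 bases (5FU), that of the 9 mature T, NK and B cell markers from 29332 to 32432, that of the 8 granulocyte and monocyte markers from 48139 to 49185, that of the 6 erythroid and megakaryocyte markers from 27205 to 27349 and that of the 5 lymphoid markers from 9614 to 11603. Their part in the results was not tested. Coverage around Kmt2c itself was 6658 bases in PBS and 7048 in 5FU, and 6729 and 6821 in the wild-type lists. A histone mark over the whole locus does not show whether the deletion took place.

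Most of the peaks were common to both treatments. Regions, merged from peaks that touched or overlapped, were shared when they overlapped by at least 1 base: 75.8% of the PBS regions and 60.5% of the 5FU regions were shared, which left 12365 regions only in PBS and 26277 only in 5FU. By bases, 26.5 Mb were covered in both lists, 61.2% of the 43.4 Mb covered in either. The wild-type pair shared 63.5% of its joint length. Most covered bases of the knockout lists were thus common to both treatments.

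Strong regions were those in the top 25% of their own list by −log10 p. Of 13011 strong PBS regions, 32 (0.246%) had no counterpart in the 5FU list, and of 18713 strong 5FU regions (ties at the limit included), 614 (3.28%) had none in the PBS list. The 5FU list thus held 95% of the strong exclusive regions (95% Wilson interval 93.1% to 96.5%, counting error only), with the same share on autosomes (605 against 32). The limit for a strong region was lower in the 5FU list, at a −log10 p of 5.82 against 8.14 in the PBS list. With the 5FU list limited to as many peaks as the PBS list, the counts were 161 in 5FU and 97 in PBS (62.4%, 56.4% to 68.1%). With 1 limit for both, a −log10 q of 5 in a region's own list, the direction turned: 24 lay in 5FU and 40 in PBS (37.5%, 26.7% to 49.7%). The same share in the wild-type pair was 85.2% (144 against 25; 79.1% to 89.8%).

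**Figure D1:**
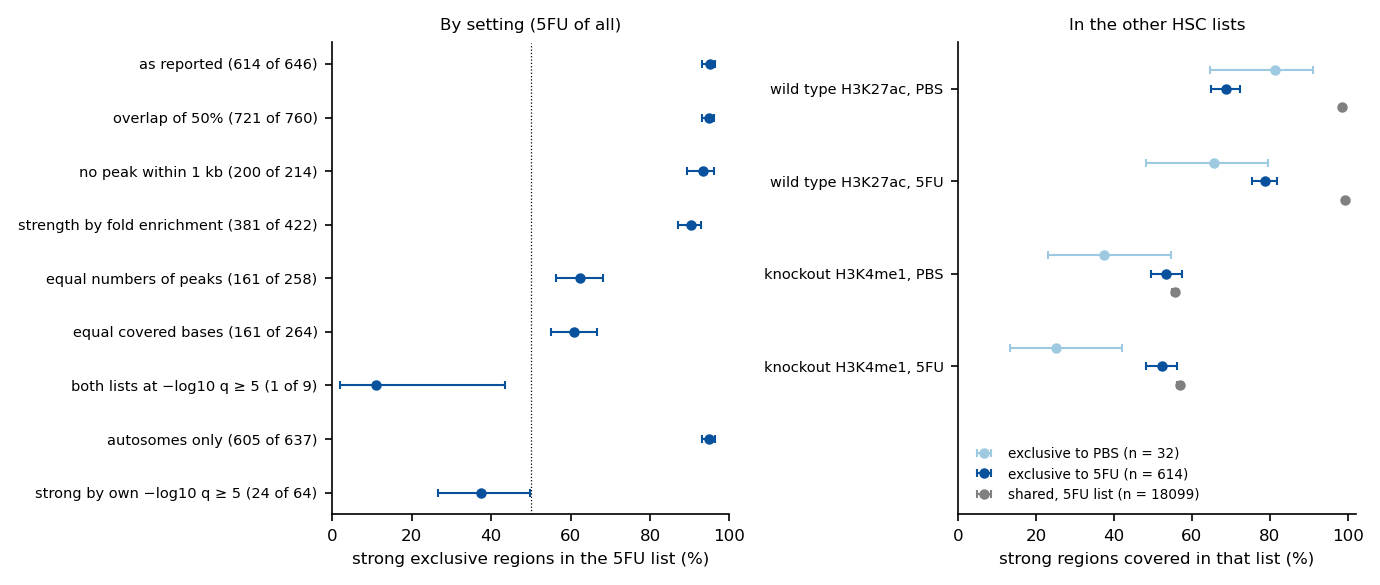
Left, the 5FU list's percentage of the strong exclusive knockout regions under each setting, with the counts in brackets and Wilson 95% intervals (counting error only); the dotted line marks 50%. Right, the percentage of strong knockout regions covered in 4 other HSC lists, by class; the share in 5FU runs from 11.1% to 95% with the setting, and shared regions sit near 100% in the wild-type H3K27ac lists.

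The 614 strong regions exclusive to 5FU were narrow (median width 324.5 bases, against 1087 for the shared strong regions of that list) and close to regions of the PBS list: the median distance was 365.5 bases and 67.4% lay within 1 kb. A further 88 lay more than 10 kb from any PBS peak. A gene end lay within 1 kb of 16.6% of them (13.9% to 19.8%), against 43.5% of the shared strong 5FU regions. Another 51.0% lay inside a gene and 32.4% between genes. Of the 32 regions exclusive to PBS, 40.6% (25.5% to 57.7%) had a gene end within 1 kb and 18 lay within 1 kb of a 5FU peak.

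The wild-type lists, which had no part in choosing these regions, held most of them. Of the 614 regions exclusive to knockout 5FU, 374 were covered in both wild-type lists, 110 only in wild-type 5FU, 48 only in wild-type PBS and 82 in neither. Of the 158 that only 1 wild-type list covered, 69.6% (62.1% to 76.3%) were thus in the 5FU list. Of the 32 regions exclusive to knockout PBS, 20 were covered in both wild-type lists, 6 only in wild-type PBS, 1 only in wild-type 5FU and 5 in neither. The wild-type 5FU list also covered more of the genome than the wild-type PBS list (45.4 against 42.2 Mb). Over all 26277 exclusive 5FU regions, weak ones included, 64.3% of the 7901 held by 1 wild-type list were in the 5FU list, and over all 12365 exclusive PBS regions 53.5% of 3850 were also in the 5FU list. The surplus of the wild-type 5FU list was thus present on both sides once weak regions were counted.

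The strongest single regions exclusive to 5FU lay at Uty and Ddx3y, the Y-linked genes described above, with −log10 p of 20.3 and 15.7. On autosomes the strongest lay 35267 bases from Hjv, a gene of iron regulation (116 bases, −log10 p 13.6), and near Snx7 (614 bases, 10.5), both also covered in both wild-type lists. Next in order, a region of 654 bases in Serpina3g (chr12:104237007-104237660), a serine protease inhibitor gene of activated blood cells, had a −log10 p of 9.47 and lay 74 bases from a PBS peak; wild-type 5FU covered all of it and wild-type PBS 291 bases. A region of 593 bases (chr11:106722507-106723099) near Pecam1, the gene of the adhesion molecule CD31, had a −log10 p of 9.47 and was also covered in wild-type PBS (556 bases) but not in wild-type 5FU.

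Some regions exclusive to knockout 5FU were covered in full by the wild-type 5FU list and not at all by the wild-type PBS list. The examples in Selp and Ly6a were picked after their values were seen. A region of 722 bases at chr1:164116664-164117385 lay inside Selp, 796 bases from the nearest knockout PBS peak, with a −log10 p of 8.51. A region of 711 bases at chr15:74995552-74996262 lay inside Ly6a, which encodes Sca-1, the surface protein used to sort mouse HSCs, 95 bases from the nearest knockout PBS peak and with the same −log10 p. These regions separated the treatments in the same direction in both genotypes.

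The strongest regions exclusive to PBS lay inside Dnajc6 (740 bases, −log10 p 11.7), inside Nipal2 (929 bases, 10.8) and inside Crot, a peroxisomal carnitine acyltransferase gene (771 bases, 9.86). The Nipal2 region lay 96273 bases from any 5FU peak and the Crot region 25020 bases. Both were covered in wild-type PBS (685 and 433 bases) and not in wild-type 5FU, while the Dnajc6 region was covered in both wild-type lists. A region of 646 bases lay 789 bases from Bcl6, a transcriptional repressor gene of lymphocytes, but only 110 bases from a 5FU peak.

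Around genes, the comparison used the bases covered within 50 kb of each protein-coding gene. The log2 ratio of 5FU over PBS was computed with 1000 bases added to each value, and the ratio of the median gene (0.05) was subtracted, so a value of 0 is the median gene. Genes under 1000 covered bases in both lists were left out. Of the remaining 15302, 204 (1.33%) were at least 1.5-fold above the median gene after 5FU (0.58 on the log2 scale) and 157 (1.03%) at least 1.5-fold below. Because windows overlap, these genes made 150 and 117 separate loci. On autosomes alone the counts were 193 (1.29%) and 157 (1.05%) of 14971. The called genes had little coverage (median 2458.5 bases for those above, 1862 for those below). With 5000 bases added in place of 1000, only 12 (0.0784%) and 3 (0.0196%) genes passed the limits. With equal numbers of peaks 131 (0.862%) lay above and 265 (1.74%) below, and with equal covered bases 137 (0.902%) and 276 (1.82%). Windows of 10 kb gave 185 (1.62%) and 162 (1.42%), and peaks of a −log10 q of 5 or more gave 363 (2.75%) and 1672 (12.7%). Under both limits of list size (equal numbers of peaks and equal covered bases), 117 of the 204 and 135 of the 157 kept the call. With the limits of list size, windows of 10 kb and a −log10 q of 5 each applied in turn, 11 genes above (5 of them on X or Y, and Selp and Grk3 among the others) and 20 below (Myl10, Mycn, Kbtbd11 and Zdhhc14 among them) kept it throughout.

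The Selp locus on chromosome 1 had more coverage after 5FU in both genotypes. Selp (chr1:164115264-164150026) had 2451 covered bases in knockout PBS and 6835 in knockout 5FU, a relative log2 ratio of 1.13, and 3737 and 8737 in the wild-type lists (0.98). In both genotypes the 5FU list covered more than the PBS list, by a similar ratio. With windows of 10 kb the knockout ratio of Selp was also 1.13.

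F5 (chr1:164151835-164220277), the gene of coagulation factor V, shares much of this window and had 3609 and 8081 bases (0.93; wild type 0.63), but lost the call with windows of 10 kb (0.35). The number of knockout peaks around Selp was 6 in PBS and 19 in 5FU. Of the 19, 12 did not overlap any PBS peak, and 4 of those 12 were covered in wild-type 5FU and 1 in wild-type PBS. All 6 PBS peaks had a counterpart in 5FU. The strongest peak of the PBS list lay 20616 bases into the gene with a −log10 p of 11.7, against 10.3 for the strongest 5FU peak, which began 332 bases before the start and overlapped a PBS peak of 345 bases. The exclusive 5FU peaks were spread from 44226 bases before to 34448 bases after the start. The widest of them (803 and 722 bases) began 5549 and 1400 bases into the gene.

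**Figure D2:**
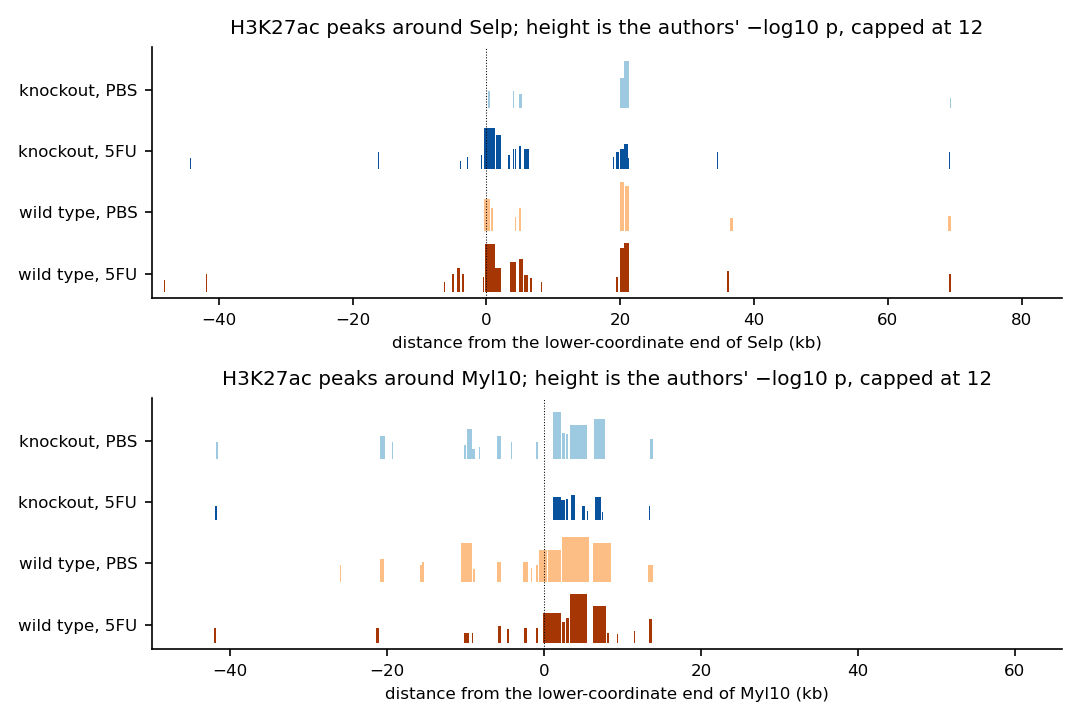
Peaks of the 4 HSC H3K27ac lists around Selp and Myl10, by distance in kb from the gene's lower-coordinate end (for Selp, its start); each block is a peak to scale in width, and its height is the authors' −log10 p, capped at 12. Around Selp the knockout lists hold 6 peaks (PBS) and 19 (5FU), and around Myl10 they hold 16 and 10, and 10 of the 16 have no 5FU counterpart.

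Angpt1 and Tek encode a ligand and its receptor, angiopoietin-1 and TIE2, which hold HSCs in their niche in a quiescent state. Angpt1 (chr15:42424667-42676977) had 13610 covered bases in knockout PBS and 25681 in knockout 5FU (0.82), and 16667 and 20008 in the wild-type lists (0.19). Its peaks numbered 28 and 75 in the knockout lists. Of the 75, 53 were exclusive to 5FU, with a median −log10 p of 3.47 and none above 5.00, and 11 of the 53 were covered in wild-type 5FU. The added coverage at Angpt1 was thus spread over many weak peaks, and the ratio was 0.40 without peaks under a −log10 q of 5. Tek (chr4:94739086-94874976) had 1301 and 3548 bases (0.93), and 2467 and 2258 in wild type (-0.15). Tek was under the 1.5-fold limit with equal numbers of peaks (0.52) and with windows of 10 kb (0.22). Without peaks under a −log10 q of 5, Tek had no covered base left in either knockout list, so no ratio was measured.

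Cell-cycle genes lay on both sides of the median gene. Cdk6 (chr5:3341004-3531008), the kinase whose level sets how fast HSCs leave quiescence, had 15381 covered bases in knockout PBS and 26587 in 5FU (0.70), and 15221 and 24040 in wild type (0.57). The 5FU list covered more bases at Cdk6 in both genotypes, but the wild-type ratio was under the limit, and the knockout ratio was 0.31 without peaks under a −log10 q of 5. Of its 44 knockout 5FU peaks, 28 were exclusive to 5FU and 10 of those were covered in wild-type 5FU against 2 in wild-type PBS. H3K4me1 coverage at Cdk6 also differed, with 15280 bases in the knockout PBS and 24283 in the knockout 5FU list (0.63).

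Cdk1 had only 335 and 1218 bases (0.68), and 1462 and 1087 in wild type (-0.30), so its ratio rests on few bases, among them those of the promoter printed above. Mki67, a marker of dividing cells, had 4914 and 7881 bases (0.54), short of the limit. Ccne1, which encodes cyclin E1, had 1937 and 986 bases (-0.61), and 1271 and 1145 in wild type. Ccne1 lost the call with equal numbers of peaks (-0.55), equal covered bases (-0.54) and windows of 10 kb (-0.24). Without peaks under a −log10 q of 5, Cdk1 had no covered base left in either knockout list. Of the 30 measured members of the cell cycle list, 14 lay above the median gene, 2 at least 1.5-fold above and 1 at least 1.5-fold below, with a median of -0.03. Over all measured genes, 1.33% and 1.03% passed these limits. At a −log10 q of 5, 9 of 25 measured members lay above the median gene and 6 lay at least 1.5-fold below. Of all measured genes, 12.7% lay that far below at that q.

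Several other loci had more coverage after 5FU. Hoxb1 (chr11:96365746-96368254), a homeobox gene at the end of the Hoxb cluster, had 2997 bases in PBS and 8662 in 5FU (1.22), and 5704 and 9068 in wild type (0.53). Hoxb4 and Hoxb5 in the same cluster, both linked to HSC self-renewal, had 14498 and 20356 bases each (0.41). The strongest exclusive 5FU peak in the window of Hoxb1 had a −log10 p of 7.58 and began 16756 bases below the gene. With windows of 10 kb, Hoxb1 had no covered base in either knockout list, so no ratio was measured. Olfr64 (chr7:103892810-103894471) and its neighbour Olfr65 are olfactory receptor genes beside the β-globin cluster. Olfr64 had 2094 and 7993 bases (1.49, and 0.66 in wild type), with 21 of its 28 5FU peaks exclusive, but 0.31 with windows of 10 kb. Without peaks under a −log10 q of 5, Olfr64 had no covered base left in either knockout list. The globin gene Hbb-bt had 5810 and 8130 bases (0.37).

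Cd22, a B cell receptor gene, had 2107 and 5707 bases (1.06), and 6534 and 9636 in wild type (0.44). Pecam1 had 14162 and 22707 (0.60), and 30088 and 37412 in wild type (0.25). Tgfbr3, a co-receptor for TGF-β, had 19396 and 30863 (0.59; wild type 0.28), Grk3, a receptor kinase gene, 4875 and 10175 (0.88; wild type 0.30), and Pik3cb, a catalytic subunit of PI3-kinase, 3829 and 7877 (0.83; wild type 0.61). At each of these 5 genes both genotypes had more coverage after 5FU, and the knockout PBS list had the lowest value of the 4. Grk3 kept the call under every planned setting. For Pecam1 and Tgfbr3 the call was lost with equal numbers of peaks (0.57 and 0.49), for Pecam1 also with windows of 10 kb (0.35), and for Cd22 and Pik3cb with windows of 10 kb (0.27 and 0.47). Without peaks under a −log10 q of 5, Tgfbr3 (0.23) also lost it, and Cd22 and Pik3cb had no covered base left in either knockout list.

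**Figure D3:**
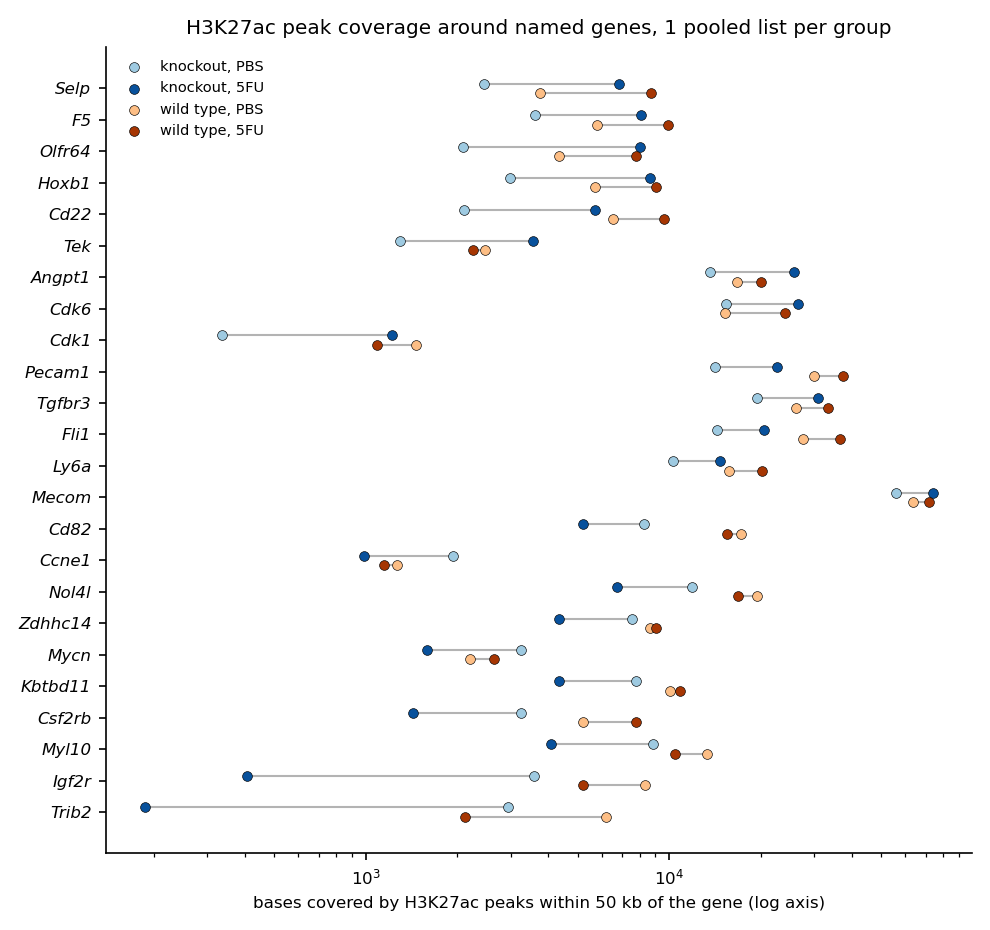
Bases covered by H3K27ac peaks within 50 kb of 24 genes (log axis), with knockout in blue and wild type in orange, PBS light and 5FU dark; a line joins the treatments of a genotype and no error can be given, since each list is pooled. Selp and Olfr64 separate by treatment in both genotypes, and Trib2 and Igf2r are lower after 5FU in both. Csf2rb, Tek, Cdk1, Mycn, Kbtbd11 and Zdhhc14 have opposite order in knockout and wild type.

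Most genes called below the median gene lay outside the gene lists, as did most genes called above it. The lists held 455 entries, against 21887 protein-coding genes. Myl10 (chr5:136688892-136701857), a myosin light chain gene, had 8832 bases in PBS and 4091 in 5FU (-1.0), and 13271 and 10443 in wild type (-0.38). Of its 16 PBS peaks, 10 were exclusive to PBS, and 7 of those were covered in wild-type PBS. Trib2 (chr12:15791725-15816962), a pseudokinase gene that drives leukaemia when overexpressed, had 2933 bases in PBS and 188 in 5FU (-1.78), and 6171 and 2128 in wild type (-1.25). Igf2r (chr17:12682406-12769706), the receptor that clears insulin-like growth factor 2, had 3578 and 406 bases (-1.75), and 8299 and 5208 in wild type (-0.64).

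At these 3 genes the PBS list covered more in both genotypes. The exclusive PBS peaks of Trib2 (5) and Igf2r (8) were all covered in wild-type PBS, and 3 and 7 of them also in wild-type 5FU, so most of these peaks had a counterpart in all lists except knockout 5FU. They were weak at Igf2r, with a median −log10 p of 4.27 against 6.17 at Trib2. Trib2, Igf2r and Myl10 were the only genes below the median gene that kept the call with 5000 bases added. Without peaks under a −log10 q of 5, Trib2 lost the call (-0.49) and Myl10 kept it (-2.42). Igf2r had no covered base left in either knockout list under that limit. Trib2 and Igf2r were named after their values were seen.

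Csf2rb, Cebpe and Mycn had less coverage after 5FU in the knockout and more in wild type. Csf2rb (chr15:78325800-78351001) encodes the β subunit that GM-CSF and several interleukins share in their receptors. It had 3236 bases in knockout PBS and 1430 in knockout 5FU (-0.85; -0.55 with windows of 10 kb), and 5192 and 7766 in wild type (0.44). A PBS peak of 1319 bases at its start stood opposite 3 separate 5FU peaks of 89, 209 and 172 bases. Cebpe, a transcription factor of granulocyte maturation, had 5514 and 3684 bases (-0.52, under the limit, and 0.14 without peaks under a −log10 q of 5), and 6316 and 9238 in wild type (0.43). Whether the effect of 5FU differed between genotypes was not tested, since each genotype had 1 list a treatment.

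Mycn, a MYC family gene, had 3247 and 1591 bases (-0.76), and 2198 and 2640 in wild type (0.13). Myc itself had 3300 and 4773 bases (0.38). Mycn was named after its values were seen. Other genes more than 1.5-fold below the median gene were Nol4l (11863 and 6739 bases, -0.78), Kbtbd11 (7777 and 4324, -0.77), Zdhhc14, a palmitoyltransferase gene (7533 and 4333, -0.73), and Cd82, a tetraspanin linked to HSC quiescence (8227 and 5186, -0.63). Nol4l lost the call without peaks under a −log10 q of 5 (-0.34), and Cd82 there (-0.53) and with windows of 10 kb (-0.57). In wild type, Kbtbd11 (0.04) and Zdhhc14 (-0.00) lay at the median gene and Nol4l (-0.25) and Cd82 (-0.20) below it. Dus3l (-0.65), Prr22 (-0.65), Acsbg2 (-0.75) and Rfx2 (-0.72) share 1 locus on chromosome 17 and count as 1 observation, and all 4 lost the call without peaks under a −log10 q of 5 (Prr22 and Rfx2 at -0.02). Of those, Dus3l (0.014) and Acsbg2 (0.11) turned above the median gene when peaks under a −log10 q of 5 were left out, as did Plekhg1 (from -0.62 to 0.095).

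The wild-type pair shared no library with the knockout pair and was read at the called genes. Of the 204 genes called above in the knockout, 191 were measured in wild type. Of these, 160 (83.8%, 77.9% to 88.3%) lay above the wild-type median gene, 44 were called above and 0 below, with a median relative log2 ratio of 0.32. In wild type, 1.19% of 15648 genes were called above and 0.863% below. Of the 157 genes called below, 144 were measured, 105 (72.9%, 65.1% to 79.5%) lay below the wild-type median gene, 22 were called below and 2 above, with a median of -0.20. Neighbouring genes share windows, so these intervals are too narrow. Most called genes thus lay on the same side in wild type, with a smaller ratio there, where the genes had not been selected.

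**Figure D4:**
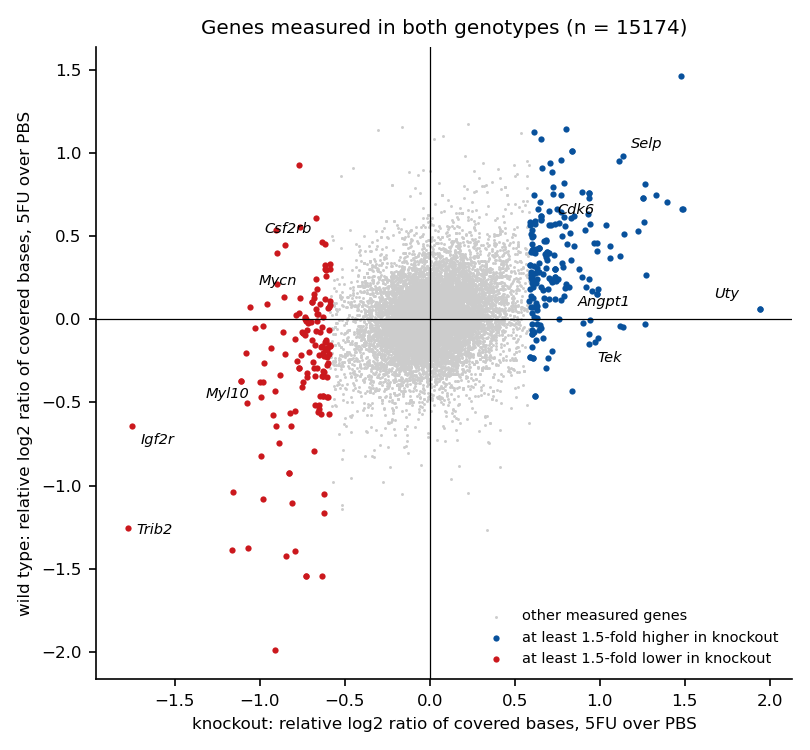
Relative log2 ratio of covered bases, 5FU over PBS, in knockout (x axis) and wild type (y axis) for 15174 genes measured in both; 0 is the median gene, and genes called in the knockout are blue (191 above) or red (144 below). Most blue points lie above 0 and most red points below 0 on the wild-type axis.

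H3K4me1, the mark that MLL3 places, was measured in the same groups. Around the 204 genes called above, 179 were measured for H3K4me1 and 58.7% of these lay above that mark's median gene (median 0.07). Around the 157 called below, 71.6% of 134 lay below it (median -0.31). The H3K4me1 pair called 3.26% of its genes above and 5.11% below, against 1.33% and 1.03% for H3K27ac. Its lists were weak: 1.04% of the PBS peaks (3 libraries) and 0.635% of the 5FU peaks (4 libraries) reached a −log10 q of 5. For H3K27ac those shares were 26.2% and 15.7%. Whether the mark itself varied more was not tested. Of the strong H3K27ac regions exclusive to 5FU, 53.4% (49.5% to 57.3%) lay under H3K4me1 in the knockout PBS list and 52.3% in the knockout 5FU list. The shared strong 5FU regions had 55.7% and 56.8%. In wild type the H3K4me1 5FU list covered 81.3% and the PBS list 57.8%, but these lists differ in size (6 libraries and 116 Mb against 4 libraries and 54.0 Mb), and for the shared strong 5FU regions the shares were 80.0% and 60.8%. For the regions exclusive to PBS the knockout shares were 37.5% (PBS) and 25% (5FU), with only 32 regions.

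The gene lists stayed close to the median gene. Over all 15302 measured genes, 7649 lay above and 7650 below, with 1.33% at least 1.5-fold above and 1.03% at least 1.5-fold below. Of the 34 HSC identity genes, 24 lay above (70.6%, 53.8% to 83.2%), with a median of 0.11, 2 at least 1.5-fold above (Tek and Angpt1) and 0 below. In wild type it was 27 of 34 with a median of 0.09. The share was 51.6% when peaks under a −log10 q of 5 were left out. Fli1, an ETS factor, had 14415 and 20510 bases (0.43), Mllt3, a keeper of HSC identity, 18582 and 25663 (0.40), and Ly6a 10288 and 14724 (0.43). Hlf, an HSC-restricted factor, had 8090 and 7987 (-0.07), Kit, the receptor of stem cell factor, 11647 and 12334 (0.03), and Thy1 3318 and 2435 (-0.38). Without peaks under a −log10 q of 5, Fli1 (-0.14) and Kit (-0.42) lay below the median gene.

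Lists of signalling and stress genes held no member at either limit. Over all measured genes only 1.33% passed the upper limit and 1.03% the lower, and 0 members in lists of this size is close to those shares. Of 27 self-renewal and niche genes, 17 lay above, with a median of 0.11, led by Stat5b (0.44) and Stat5a (0.42), which transduce cytokine signals, but the share was 36.0% at a −log10 q of 5. Of 24 NF-kB and IL-1 response genes, 15 lay above with a median of 0.07, and 18 of 23 (78.3%) lay above at a −log10 q of 5. Among them the chemokine gene Cxcl2 had 2415 and 4032 bases (0.51), Rel, an NF-kB subunit, 3339 and 5139 (0.45), and Il1r1, the IL-1 receptor, 7454 and 9956 (0.32; wild type 0.43), while Nfkbia was at 0.11, and at -0.75 without peaks under a −log10 q of 5. Of 29 interferon response genes, 19 lay above with a median of 0.09, from Igtp (11705 and 16384 bases, 0.40) to Irgm1 (9332 and 7285, -0.37), and 38.5% at a −log10 q of 5. Of 16 antigen presentation genes, 7 lay above with a median of -0.00.

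Genes that handle 5FU or respond to the damage it causes did not stand apart as lists. Of 32 p53 and DNA damage genes, 19 lay above with a median of 0.01. The p21 gene Cdkn1a, a p53 target that halts the cell cycle, had 7136 and 7446 bases (0.00). Without peaks under a −log10 q of 5, Cdkn1a was at -0.59, at least 1.5-fold below the median gene. Pmaip1, the death gene NOXA, had 1498 and 2508 bases (0.44, but -0.53 at that q). Trp53 itself had 4378 and 3377 (-0.35, but 0.01 at that q). At that q, 5 of 29 measured genes of the p53 list were at least 1.5-fold below, against 12.7% of all measured genes. Of 24 pyrimidine and fluorouracil genes, 13 lay above with a median of 0.02. Tyms, the enzyme that 5FU inhibits, was listed with 0 bases in PBS and 131 in 5FU, and Dpyd, which breaks 5FU down, with 0 in both. Of 20 genes of H3K4 methylation and enhancer complexes, 11 lay above with a median of 0.01, from Kdm1a, a demethylase of H3K4 (2253 and 3471 bases, 0.41), to Kmt2b (5658 and 4765, -0.26).

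Lineage lists were also near 0, with single members past a limit that 1.33% of all measured genes passed above and 1.03% below. The 20 measured granulocyte and monocyte genes had a median of -0.00, with 10 above and Csf2rb the 1 member at least 1.5-fold below. The 17 megakaryocyte and erythroid genes had a median of -0.03, with Selp at least 1.5-fold above. Next to Selp, Vwf, which marks platelet-biased HSCs, had 13968 and 18298 bases (0.32) and Itgb3, an integrin of platelets, 888 and 1824 (0.53), while Epor had 4035 and 2957 (-0.40) and Klf1, the erythroid factor, 3053 and 2264 (-0.36). The 19 lymphoid genes had a median of 0.07, with 12 above, of which 1 was at least 1.5-fold above. Dntt, an enzyme of early lymphoid cells, had 2329 and 3375 bases (0.35), and Ccr7, a homing receptor, 4599 and 3322 (-0.42). Ccr7 did not keep that side without peaks under a −log10 q of 5.

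The remaining lists served as a reference. Medians were 0.02 for 27 quiescence and immediate early genes, 0.00 for 35 ribosomal protein genes, -0.03 for 20 housekeeping genes, -0.02 for 8 measured genes silent in blood and 0.03 for 11 mature T, NK and B cell markers, of which Cd22 was at least 1.5-fold above. Of 12 measured stroma and endothelium markers 2 lay above (median -0.14), Pecam1 and Runx2. With windows of 10 kb only 6 of them were measured, and 4 (66.7%) lay above. Over the 18 lists, no median was farther from 0 than 0.14.

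**Figure D5:**
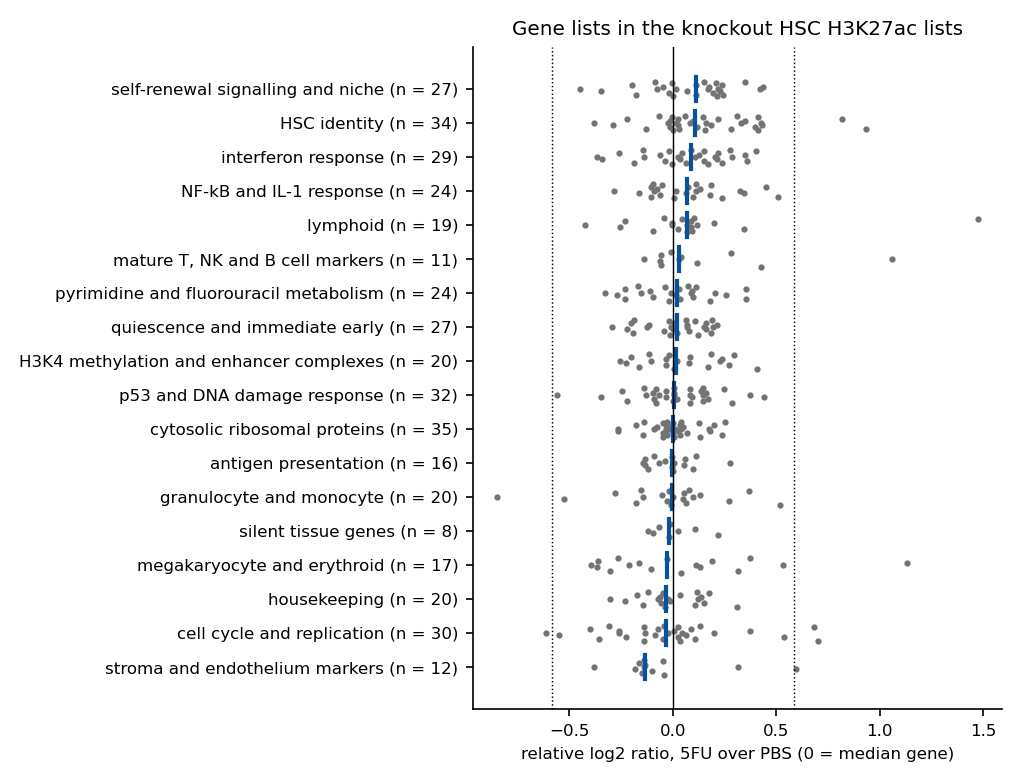
Relative log2 ratio of covered bases (5FU over PBS, knockout) for the measured members of 18 gene lists; each point is a gene, the blue bar is the list's median, the solid line is the median gene and dotted lines mark the 1.5-fold limits. The medians run from -0.14 to 0.11, and few members pass a limit.

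Promoters were counted by whether a peak overlapped any of a gene's RefSeq promoter windows by at least 1 base. Of 17492 genes with a window, 6901 were covered in both knockout lists, 9653 in neither, 475 (2.72%) only in PBS and 463 (2.65%) only in 5FU, so promoters showed no surplus of the 5FU list. In wild type the counts were 393 only in PBS and 480 only in 5FU. Of the 463 knockout 5FU-only promoters, 91 were 5FU-only and 55 PBS-only in wild type, and 221 were covered in both wild-type lists. Of the 475 PBS-only promoters, 71 were PBS-only and 63 5FU-only in wild type, and 262 were covered in both.

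In the fixed lists, promoters only in 5FU included Ifitm1, an interferon-induced antiviral gene (300 bases, against 206 and 300 in wild-type PBS and 5FU), Socs3, a feedback inhibitor of cytokine signalling (38 bases, also 5FU-only in wild type), Cxcl2 (19 bases) and Procr, the HSC marker EPCR (27 bases, PBS-only in wild type). Promoters only in PBS included Kit (178 bases), Hoxb4 (151 bases, also PBS-only in wild type), Elane, the neutrophil elastase gene (156 bases, in neither wild-type list), and Cdkn1a (43 bases, 5FU-only in wild type). The p53 list had 3 of 25 promoters only in PBS (Cdkn1a, Fas and Aen) and 0 only in 5FU, and Fas was also 5FU-only in wild type. Over all genes, 2.72% were only in PBS and 2.65% only in 5FU. The HSC identity list had 3 of 24 in each class. The NF-kB and IL-1 list had 2 of 21 only in PBS and 3 only in 5FU. No promoter of the ribosomal, antigen presentation, pyrimidine or housekeeping lists was covered in a single knockout list.

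Of 10 motifs searched, 3 are given for the promoter classes. A gene counted as holding a motif when any of its promoter windows held a match. The CRE motif (TGACGTCA, the site of cAMP-responsive factors, both strands) was found in 4.94% (4.45% to 5.48%) of promoters covered in both knockout lists, in 1.3% (0.595% to 2.80%) of those only in 5FU, in 0.842% (0.328% to 2.15%) of those only in PBS and in 2.54% of all. For CG dinucleotides, each gene was given the highest count among its windows. The median over genes was 23 for promoters in both lists, 19 for 5FU only, 23 for PBS only and 5 for neither. The AP-1 motif was found in 6.70% of 5FU-only and 5.89% of PBS-only promoters against 5.96% of those in both lists, and the RUNX motif (TGTGGT) in 16.4% and 13.1% against 14.9%. For these 3 motifs the intervals of the single-list classes overlapped each other.

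The widest sums of exclusive bases lay at loci that were widely covered after both treatments. In the 5FU list these were Etv6 (20101 exclusive bases), Sgms1, a sphingomyelin synthase gene (17148), Arid1b, a subunit of a chromatin remodeller (14344), and Mecom (13770). In the PBS list they were Gse1 (12365), Prdm16 (7440) and Arid1b (6953). Mecom, a gene needed for HSC maintenance, had 55689 bases in PBS and 73755 in 5FU (0.35), with 64 peaks exclusive to 5FU and 9 exclusive to PBS. Etv6, an ETS repressor gene of HSCs, had 72624 and 92521 bases (0.30), with 79 and 20 exclusive peaks, but -0.23 without peaks under a −log10 q of 5. Sgms1 had 74368 and 101084 bases (0.39). At Mecom and Etv6 the exclusive 5FU peaks were weak, with a median −log10 p of 3.47. Prdm16, another HSC regulator, had 43116 and 38142 bases (-0.22; wild type 0.08), with 27 exclusive peaks in each list. Gse1 had 57734 and 47998 (-0.31; wild type -0.09), with 24 exclusive 5FU and 50 exclusive PBS peaks. None of Mecom, Etv6, Sgms1, Prdm16 and Gse1 was 1.5-fold apart from the median gene.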

How the data were processed

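H3K27ac and H3K4me1 were profiled by ChIPmentation, in which the Tn5 transposase adds adapters to precipitated chromatin, on sorted and fixed cells, per the labels' protocols. Novoalign, MACS2 and mm10 (GRCm38) are named in the submitters' processing notes; for their versions and settings, the sources used here give nothing. Each deposited list gives, per peak, the authors' fold enrichment, −log10 p and −log10 q, and pools the libraries of a group, so library depth is unknown and its effect on precision could not be measured. Peak scores describe and order the peaks of 1 list. Scores of different lists were set side by side and cut at the same limit. A difference in score was not taken as a change in signal.

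Peaks that touched or overlapped were merged, strong regions were the top 25% of a list by −log10 p, and regions were shared at 1 base of overlap. Covered bases were summed within 50 kb of 21887 RefSeq protein-coding genes (GRCm38.p6), 1000 bases were added, and genes with at least 1000 bases in either list were compared with a rule of 1.5-fold. No test was run, since a group had 1 pooled list; intervals are Wilson 95% and cover counting error only. Named were the 10 strongest exclusive regions a direction, up to 4 members a list and direction past 1.5-fold, the 10 largest ratios at a mean of at least 5000 bases, 13 reference genes and the 10 widest exclusive sums, limited to genes of a list or of known role. A few genes this rule covers are not reported here. Others named, among them list members short of the limit, were chosen after their values were seen. The members and lists were chosen with earlier results of these data known. Of 455 list genes, 453 matched. Promoters came from RefSeq for 17492 genes. Alternatives covered window, added bases, list size, thresholds, overlap and filter. Python 3.11.15, numpy 2.4.6, pandas 2.3.3, scipy 1.17.1 and matplotlib 3.10.9 were used. The counting was tested on simulated data over 21887 genes, where 200 of 200 genes with doubled coverage and 500 of 500 moved regions a list were found.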

Additional observations from a re-analysis of the deposited data

How the results depend on the processing

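Each list pools its libraries, so no replicate could be left out. No paired analysis was possible because the lists hold no values per replicate. The surplus of strong exclusive regions in 5FU depended on the list's size and thresholds. Against 614 (5FU) and 32 (PBS), 95% in 5FU, there were 200 and 14 beyond 1 kb, 381 in 5FU (90.3%) with strength by fold enrichment, 161 and 97 (62.4%) with equal numbers of peaks, and 161 and 103 (61.0%) with equal covered bases. The direction turned with peaks of −log10 q of 5 or more in both lists (1 and 8, 11.1%) and with that limit in a region's own list (24 in 5FU, 37.5%), an alternative chosen after seeing the data, as were those for autosomes and promoters. Genes at least 1.5-fold higher and lower numbered 12 and 3 with 5000 bases added, 131 and 265 with equal numbers of peaks, and 363 and 1672 at a −log10 q of 5; 276 were lower with equal covered bases. At that q, Plekhg1 (0.095), Dus3l (0.014) and Acsbg2 (0.11) turned above the median gene. List members above it were then 36.0% of cell cycle and 78.3% of NF-kB and IL-1 genes. They were 51.6% of HSC identity, 38.5% of interferon, 36.0% of self-renewal and 60.0% of stroma genes. With windows of 10 kb they were 66.7% of stroma genes (4 of only 6 measured) and 0% of silent genes (0 of only 2 measured). With equal numbers of peaks, wild-type PBS and 5FU covered 92.8% and 85.6% of PBS-exclusive and 75.8% and 87.0% of 5FU-exclusive regions; with equal covered bases, 93.2%, 86.4%, 75.8% and 87.0%. At a −log10 q of 5, 1034 promoters were covered in PBS only and 178 in 5FU only. The cause of these differences was not tested.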

Other observations

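Of the 157 genes called lower in the knockout, 144 were measured in wild type and 2 were called higher there. Over all 15648 genes measured in wild type, 1.19% were called higher, and 2 of 144 is close to that share. Mn1, a transcriptional co-regulator gene rearranged in myeloid leukaemia, had 1856 covered bases in knockout PBS and 730 in knockout 5FU (-0.77), and 1237 and 3426 in wild type (0.93). Rhbdd2 had 2284 and 1138 bases (-0.67), and 2650 and 4789 in wild type (0.61). Whether the genotypes differed was not tested.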
